A study of Mus musculus with 48 samples.

Results

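Cxcl9, Cxcl10 and Cxcl11 encode the chemokines that act through the receptor CXCR3. They were taken by symbol from the deposited read count table of RAW264.7 cells, and they make up 3 of its 49568 genes. All 3 rows were found. The genes lie side by side on the minus strand of chromosome 5 (GRCm38), Cxcl9 (ENSMUSG00000029417.9) at 92321347 to 92328079, Cxcl10 (ENSMUSG00000034855.13) at 92346638 to 92348889 and Cxcl11 (ENSMUSG00000060183.6) at 92359544 to 92365485.

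Chemokines are small secreted proteins that direct leukocyte migration, and CXCR3 is carried mainly by activated T cells and natural killer cells. Macrophages are a main source of its ligands: IFN-γ acts in part through IRF1 to switch on Cxcl9, while Cxcl10 and Cxcl11 also answer to type I interferon through interferon-stimulated response elements and Cxcl10 to NF-κB. Cxcl11 is annotated as a polymorphic pseudogene by GENCODE and as a transcribed pseudogene by RefSeq, because the reference strain carries a broken reading frame. RAW264.7 is a line from BALB/c mice, and read counts do not show whether a CXCL11 protein is made.

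RAW264.7 macrophages received PBS or 1 of 3 synthetic peptides of 15 residues at 100 µg/ml, without IFN-γ or with recombinant mouse IFN-γ at 5 ng/ml, and RNA was taken at 72 h. LE carries the sequence of an HLA-DRB1 allele tied to lupus, SE and PE come from alleles linked to rheumatoid arthritis and to protection, so that the peptides are human HLA sequences added to the medium of a mouse line. The groups are PBS, LE, SE, PE, IFNy, LE+IFNy, SE+IFNy and PE+IFNy, each with 3 letter-labelled libraries (replicates 1 to 3) and 3 HLA-labelled libraries (replicates 4 to 6). Cells of all groups were the same line in the same medium, which was refreshed at 48 h, and p-values measure the spread between libraries of that line.

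The letter-labelled libraries held 16.5 M to 26.9 M counts (median 22.9 M, where M is 1000000). All 6 macrophage markers were present, among them Csf1r with 698 to 1187 CPM (counts per M of the library total) and Cd68 with 1275 to 2165 CPM. Of the markers of T cells, B cells, fibroblasts and epithelium, Cd8a, Ms4a1 and Epcam were at 0 in all 24 libraries, and the highest count was 47, for Pdgfra. The mean level of 19 IFN-γ targets, as log2(CPM + 1), was 6.56 to 6.93 in the libraries labelled with IFN-γ and 3.15 to 3.35 in the others, and all 24 matched their label. Of the 24 HLA-labelled libraries, 12 had a level that goes against their label, and results between groups are therefore given for the letter-labelled series. The HLA-labelled values are given by label near the end.

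RefSeq start-site windows on GRCm38.p6 were available for Cxcl9 and Cxcl10. The 250 bases before each start are printed here to show where they match the letter patterns named next. Other forms of interferon and NF-κB elements were not searched. Capitals mark matches on either strand to GAAA with any 2 bases before a second GAAA (interferon-stimulated response element-like), TTCNNNGAA (gamma-activated site-like), the NF-κB consensus or TATAAA.
Cxcl9 promoter (chr5:92328080-92328329, minus strand): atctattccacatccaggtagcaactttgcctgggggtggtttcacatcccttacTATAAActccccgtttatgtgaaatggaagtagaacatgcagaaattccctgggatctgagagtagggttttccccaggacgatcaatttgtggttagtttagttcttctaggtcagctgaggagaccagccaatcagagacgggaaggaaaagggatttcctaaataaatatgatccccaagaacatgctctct
Cxcl10 promoter (chr5:92348890-92349139, minus strand): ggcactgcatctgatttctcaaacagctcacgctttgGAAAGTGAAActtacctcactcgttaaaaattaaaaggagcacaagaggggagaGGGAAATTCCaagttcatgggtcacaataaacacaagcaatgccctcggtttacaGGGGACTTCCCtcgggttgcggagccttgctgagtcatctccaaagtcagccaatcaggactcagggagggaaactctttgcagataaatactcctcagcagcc
The Cxcl10 stretch held GAAAGTGAAA at -213 from the start and matches to the NF-κB consensus at -159, -104 and -103, of which the matches at -104 and -103 overlap. Of the 32851 promoter windows of 300 bases in the RefSeq table, 3.44% held the response element-like letters and 8.46% the NF-κB consensus. The Cxcl9 window matched only TATAAA, at -195, which 13.62% of windows held. The gamma-activated site-like letters, held by 8.30% of windows, were in neither. A match is a description of letters and no match says nothing about binding.

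The first comparison asked what IFN-γ alone did to the ligands. All 3 transcripts rose. Cxcl9 had 0 counts in each of the 3 PBS libraries and 866, 406 and 842 counts in the IFNy libraries, or 30.6 ± 12.3 CPM (SD, n = 3). Taking 3 counts per library as the floor, Cxcl9 was at least 228-fold higher with IFN-γ (edgeR's adjusted p = 1.79e-06). Cxcl9 passed the filter on low counts only through the IFNy libraries. Its floor without IFN-γ was known beforehand, so this p-value adds no separate support. The IFNy library of replicate 2 was the lowest at 16.6 CPM, against 35.5 and 39.7 CPM in the other IFNy libraries. In RNA from whole cultures, more cells with a transcript and more transcript per cell cannot be told apart.

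Cxcl11 likewise had 0 counts in every PBS library and 58, 41 and 83 counts with IFN-γ (2.66 ± 1.14 CPM, SD, n = 3), at least 19.8-fold higher (edgeR's adjusted p = 4.65e-05). Cxcl11 too passed the filter only through the IFNy libraries. Cxcl10 differed from both in being detected without IFN-γ. It had 8, 10 and 25 counts in the PBS libraries and 93, 103 and 96 in the IFNy libraries, and its log2 fold change was 2.70 (SE 0.362, edgeR's adjusted p = 0.000128). Expressed as CPM, Cxcl10 went from 0.654 ± 0.452 to 4.18 ± 0.359 (SD, n = 3). The groups did not overlap for any of the 3 genes. Of the 12242 genes tested, 24.6% had all IFNy libraries above all PBS libraries, and 9.79% were called higher and 8.28% lower, a call being an adjusted p under 0.05 with a fold change over 1.5.

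Each peptide given alone was then set against PBS. Cxcl9 had 1 count in 1 SE library and 0 in the other 11 libraries without IFN-γ. Cxcl11 had 0, 0 and 2 counts with LE, 1 in each SE library and 2 in each PE library. Both genes were thus at or under the floor in all 4 groups, and no fold change is given for them.

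Cxcl10 had 20, 11 and 11 counts with LE, 13, 14 and 10 with SE and 7, 5 and 7 with PE. The LE and SE libraries lay within the range of the PBS libraries (0.338 to 1.17 CPM), and 2 of the 3 PE libraries lay below it. The log2 fold changes against PBS were 0.08 (SE 0.461, 95% interval -0.90 to 1.06) with LE, -0.04 (SE 0.470, -1.04 to 0.97) with SE and -0.94 (SE 0.524, -2.06 to 0.17) with PE. None was called (edgeR's adjusted p = 0.944, 0.966 and 0.213), where 0.0242%, 1.92% and 3.13% of all genes were called in either direction. Those shares rest on 3, 239 and 389 genes. Leaving out 1 library took the LE count to 1 for 5 of the 6 libraries, the SE count to 103 and 145 (PBS replicates 1 and 3) and to 105, 381 and 48 (SE replicates 1, 2 and 3), and the PE count to 120 (PBS replicate 1) and to 78, 1002 and 84 (PE replicates 1, 2 and 3). At 5 to 25 counts per library these intervals still hold changes of 1.5-fold in at least 1 direction.

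**Figure D1:**
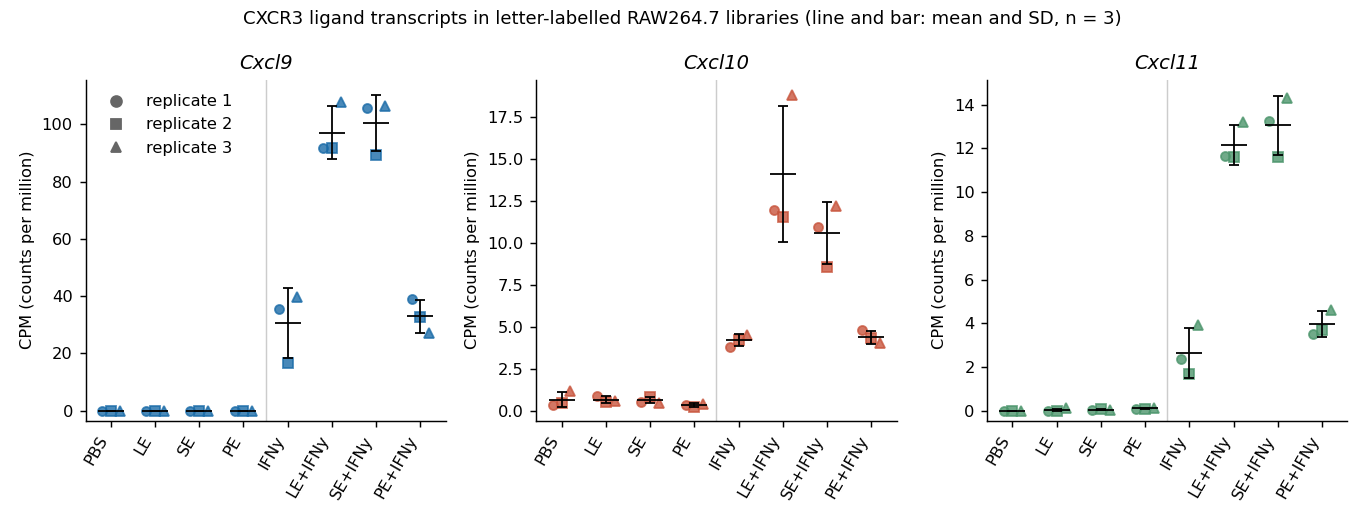
CPM of Cxcl9, Cxcl10 and Cxcl11 on linear axes in the 24 letter-labelled libraries, by group; points are libraries, with the mean and SD of 3. Cxcl9 and Cxcl11 lie at or near 0 in the 12 libraries without IFN-γ, and all 3 genes are highest in LE+IFNy and SE+IFNy, while PE+IFNy lies near IFNy.

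Model A of the study sets each peptide with IFN-γ against IFN-γ alone. LE raised all 3 ligands. Cxcl9 had 2412, 2467 and 2467 counts in the LE+IFNy libraries (97.0 ± 9.26 CPM, SD, n = 3), which was 1.68 above IFNy on the log2 scale (SE 0.198, edgeR's adjusted p = 1.74e-06). Cxcl10 had 314, 311 and 430 counts (14.1 ± 4.06 CPM, SD, n = 3) and rose by 1.76 (SE 0.183, edgeR's adjusted p = 4.14e-07). Cxcl11 showed the largest fold change of the 3 with LE. It had 306, 312 and 302 counts (12.1 ± 0.909 CPM, SD, n = 3) and rose by 2.22 (SE 0.198, edgeR's adjusted p = 6.96e-08).

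No LE+IFNy library overlapped the IFNy libraries for any member, and for 27.4% of the 12720 genes tested the LE+IFNy libraries all lay above the IFNy libraries. With LE 9.58% of genes were called higher and 5.93% lower. By size of fold change Cxcl11 ranked at position 62, Cxcl10 at 117 and Cxcl9 at 130 among the 1218 genes called higher. The Cxcl10 spread in LE+IFNy came from replicate 3 with 18.8 CPM, beside 11.9 and 11.5 CPM in the others.

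SE also raised all 3. Cxcl9 had 2580, 2038 and 2713 counts in the SE+IFNy libraries (100.4 ± 9.66 CPM, SD, n = 3) and rose by 1.75 (SE 0.198, edgeR's adjusted p = 2.67e-06). Cxcl10 had 267, 195 and 311 counts (10.6 ± 1.85 CPM, SD, n = 3) and rose by 1.37 (SE 0.187, edgeR's adjusted p = 2.14e-05). Cxcl11, again with the largest fold change of the 3, had levels of 13.3, 11.6 and 14.3 CPM (mean 13.1 ± 1.36, SD, n = 3) and rose by 2.34 (SE 0.197, edgeR's adjusted p = 8.09e-08). The SE+IFNy and IFNy libraries did not overlap for any member, which held upward for 19.02% of all genes tested, and 5.01% of genes were called higher and 2.38% lower with SE. Cxcl11 ranked at position 48, Cxcl9 at 91 and Cxcl10 at 163 among those 637 genes.

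With PE none of the 3 was called, where 0.448% of genes were called higher and 0.181% lower. Cxcl9 had 860, 795 and 635 counts in the PE+IFNy libraries (32.9 ± 5.84 CPM, SD, n = 3), and its log2 difference from IFNy was 0.13 (95% interval -0.30 to 0.57, edgeR's adjusted p = 0.717). Cxcl10 had 106, 105 and 94 counts (4.38 ± 0.387 CPM, SD, n = 3), with a difference of 0.09 (-0.34 to 0.52, edgeR's adjusted p = 0.810). Both PE+IFNy ranges overlapped those of IFNy.

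Cxcl11 was less settled with PE. It had 78, 90 and 108 counts (3.95 ± 0.593 CPM, SD, n = 3), and 2 of the 3 libraries lay within the IFNy range of 1.68 to 3.92 CPM. The log2 difference was 0.62 (95% interval 0.15 to 1.09, edgeR's adjusted p = 0.0799). Without IFNy replicate 3 it was 1.00 and was called (edgeR's adjusted p = 0.0126), and it was also called without a filter on low counts (0.62, edgeR's adjusted p = 0.00495), with DESeq2 (0.61, DESeq2 adjusted p = 0.0281) and with the replicate number as a block (0.63, edgeR's adjusted p = 0.0323).

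**Figure D2:**
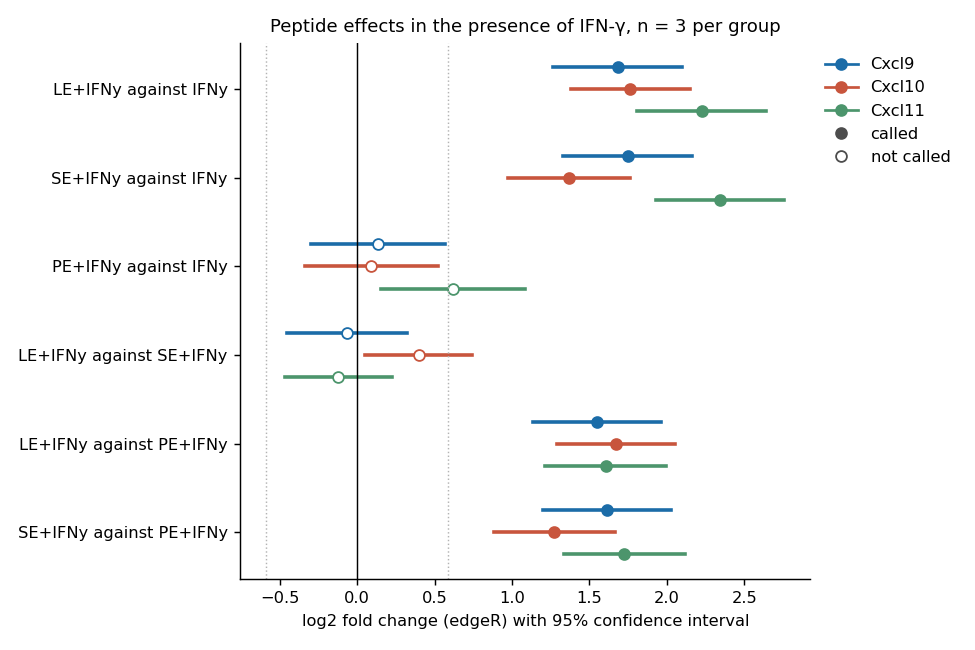
Log2 fold changes (edgeR, x axis) with 95% confidence intervals for each member, with IFN-γ present, n = 3 per group; filled points were called, and dotted lines mark a 1.5-fold change. The LE and SE effects on all 3 genes lie between 1.37 and 2.34, those of PE between 0.09 and 0.62, and the LE to SE differences between -0.12 and 0.40.

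The peptides, which are of the same length and were given at the same dose and time, were next compared in 3 pairs, all with IFN-γ. LE and SE did not differ in Cxcl9 or Cxcl11 beyond the spread, and Cxcl10 was borderline. The LE+IFNy minus SE+IFNy difference on the log2 scale was -0.06 for Cxcl9 (95% interval -0.45 to 0.33, edgeR's adjusted p = 0.824) and -0.12 for Cxcl11 (-0.47 to 0.23, edgeR's adjusted p = 0.601), so that a difference of 1.5-fold lies outside both intervals. For Cxcl10 it was 0.40 (0.05 to 0.74, edgeR's adjusted p = 0.0690), with the LE+IFNy and SE+IFNy libraries overlapping. Blocking on replicate number gave 0.39 (edgeR's adjusted p = 0.0351) and leaving low counts unfiltered 0.39 (edgeR's adjusted p = 0.00809). The adjusted p also fell under 0.05 without LE+IFNy replicate 1, LE+IFNy replicate 2 or SE+IFNy replicate 3, each time with a fold change under 1.5. Without LE+IFNy replicate 3 the difference was 0.13 (edgeR's adjusted p = 0.523). None of the 3 was called, and 4.93% of genes were called in either direction.

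Both disease-tied peptides gave higher levels than PE. Against PE+IFNy, LE+IFNy was higher by 1.55 for Cxcl9 (SE 0.196, edgeR's adjusted p = 2.85e-06), 1.67 for Cxcl10 (SE 0.182, edgeR's adjusted p = 5.18e-07) and 1.604 for Cxcl11 (SE 0.186, edgeR's adjusted p = 1.07e-06). In this pair 12.7% of genes were called higher. SE+IFNy was higher than PE+IFNy by 1.61 for Cxcl9 (SE 0.197, edgeR's adjusted p = 7.04e-06), 1.27 for Cxcl10 (SE 0.186, edgeR's adjusted p = 4.39e-05) and 1.72 for Cxcl11 (SE 0.186, edgeR's adjusted p = 1.83e-06), where 5.25% of genes were called higher. No library of LE+IFNy or SE+IFNy overlapped PE+IFNy for any member, and all libraries lay above PE+IFNy for 33.6% of all genes with LE and 22.7% with SE. The pairs share groups with each other and with Model A, so their values are not independent.

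Ordered by mean CPM, Cxcl9 and Cxcl11 were highest in SE+IFNy, then LE+IFNy, PE+IFNy and IFNy, and Cxcl10 in LE+IFNy, then SE+IFNy, PE+IFNy and IFNy. LE+IFNy and SE+IFNy did not differ beyond their spread for Cxcl9 and Cxcl11, and for Cxcl10 the difference was under 1.5-fold. PE+IFNy and IFNy did not differ beyond their spread for Cxcl9 and Cxcl10. The step that separated libraries without overlap lay between these pairs.

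Model B sets each peptide with IFN-γ against the same peptide alone. All 3 members rose with every peptide. Cxcl9 was at least 673-fold higher with LE, at least 680-fold with SE and at least 218-fold with PE, against the floor of 3 counts per library. Cxcl11 was at least 84.2-fold, 88.5-fold and 26.2-fold higher. Cxcl10, measurable on both sides, rose by 4.37 (SE 0.255, edgeR's adjusted p = 6.62e-12), 4.09 (SE 0.265, edgeR's adjusted p = 4.77e-11) and 3.73 (SE 0.325, edgeR's adjusted p = 6.20e-09). In these fits 19.1%, 15.1% and 12.1% of genes were called higher with LE, SE and PE, and 15.9%, 11.3% and 8.82% lower.

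Whether a peptide changed the response to IFN-γ was tested as an interaction, which could be read for Cxcl10 only, since the others were at the floor without IFN-γ. The difference of differences was 1.66 with LE (SE 0.472, edgeR's adjusted p = 0.00724) and 1.39 with SE (SE 0.479, edgeR's adjusted p = 0.0416), and 1.02 with PE (SE 0.540, edgeR's adjusted p = 0.618). The LE and SE interactions were called, where 11.3% and 5.08% of genes had a called positive interaction with LE and SE. With PE edgeR called 0 genes in either direction (1073 had an unadjusted p under 0.05) and DESeq2 0. The LE and SE calls leaned on the PBS library of replicate 3, which had 25 counts. Without it the interaction was 0.96 with LE (edgeR's adjusted p = 0.142) and 0.69 with SE (edgeR's adjusted p = 0.368), and the SE call was also lost without any 1 of 6 further libraries.

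Levels of different genes were compared only per length, as RPKM (counts per kilobase of exon and per M counts) over exon lengths of 3016 bases for Cxcl9, 2252 for Cxcl10 and 3794 for Cxcl11. These lengths join the exons of all annotated transcripts, and for Cxcl10 they cover the whole gene, introns included. The RPKM of Cxcl10 is therefore lower than over a spliced transcript, and the shares, sums and ratios below depend on these lengths. In all 12 letter-labelled libraries with IFN-γ the order was Cxcl9, Cxcl10, Cxcl11. Cxcl9 made up 70.4% to 83.5% of the summed RPKM of the 3. The sum was 12.7 ± 4.36 RPKM with IFNy (SD, n = 3) and 41.6 ± 5.12 with LE+IFNy.

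The proportions were not fixed between groups. In RPKM the ratio of Cxcl9 to Cxcl11 was 18.8, 12.5 and 12.8 in the IFNy libraries. It was lower, and tight, in LE+IFNy (9.92, 9.95 and 10.3) and SE+IFNy (10.02, 9.67 and 9.35), and it ran widely in PE+IFNy (13.9, 11.1 and 7.40). LE+IFNy and SE+IFNy had no library in the IFNy range. The Cxcl10 to Cxcl11 ratio was 1.24 to 1.44 in SE+IFNy, 1.47 to 2.29 in PE+IFNy, 1.68 to 2.40 in LE+IFNy and 1.95 to 4.23 in IFNy. No test was made of these ratios.

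**Figure D3:**
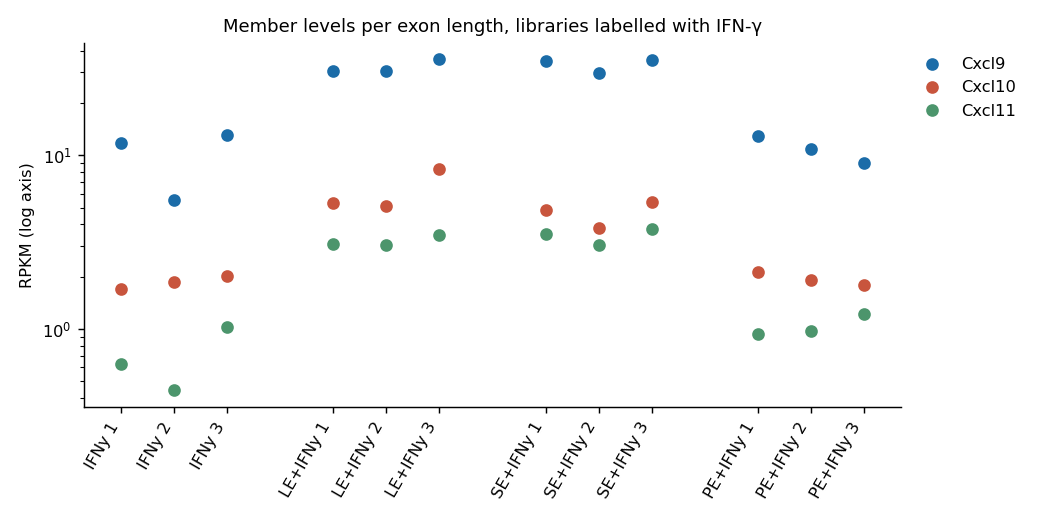
RPKM of the 3 members (log axis) in each letter-labelled library with IFN-γ, by group and replicate. Cxcl9 is highest and Cxcl11 lowest in all 12 libraries, and in IFNy replicate 2 Cxcl9 and Cxcl11 fall while Cxcl10 does not.

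Without IFN-γ, Cxcl10 was the only member of the letter-labelled libraries with more than 3 counts in a library. Within the IFNy group, replicate 2 had the lowest Cxcl9 and Cxcl11 while its Cxcl10, at 4.21 CPM, lay between those of the other IFNy libraries. That library therefore bears on Cxcl9 in Model A with PE, whose difference turned from 0.13 to -0.17 without it (edgeR's adjusted p = 0.361).

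Among 11 transcription factors that act at the members' promoters, 5 rose with IFN-γ and 0 fell (median log2 fold change 0.39 over the 11, beside -0.01 over all genes tested, of which 9.79% were called higher and 8.28% lower). Among them Irf1 rose by 2.83 (SE 0.112), Stat2 by 1.31 (SE 0.0953) and Irf7 by 0.91 (SE 0.119). With LE in Model A 2 of 11 rose, Irf7 by 1.02 (SE 0.0879) and the NF-κB subunit Rel by 0.81 (SE 0.128), and 0 fell, where 9.58% of all genes were called higher and 5.93% lower. With SE 2 rose, Irf7 by 1.25 (SE 0.0882) and Relb by 0.71 (SE 0.0672), and Irf1 fell by 0.64 (SE 0.0910), where the shares over all genes were 5.01% and 2.38%. With PE 0 of 11 were called, where those shares were 0.448% and 0.181%. Irf7 also rose with SE alone (0.74, SE 0.102, edgeR's adjusted p = 0.00227). Rel fell by 0.64 with SE alone (SE 0.141, edgeR's adjusted p = 0.0134).

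The 7 genes of the IFN-γ receptor and its feedback included 3 that rose with IFN-γ, led by the inhibitor Socs1 (2.37, SE 0.276), and 1 that fell, the receptor subunit Ifngr2 (-0.64, SE 0.0731). Over all genes, 9.79% were called higher and 8.28% lower. In Model A with LE, Socs3 rose by 0.83 (SE 0.119) and the kinase Jak1 by 0.78 (SE 0.0837), and Socs1 fell by 0.73 (SE 0.156). With SE and with PE 0 of 7 were called. Over all genes in Model A, 9.58% were called higher and 5.93% lower with LE. The shares were 5.01% and 2.38% with SE, and 0.448% and 0.181% with PE. Of the type I interferon genes, Ifnb1 had at most 4 counts in any letter-labelled library and was not tested. Its counts were 1 to 3 in LE+IFNy, 1 to 4 in SE+IFNy and 0 in IFNy and PE+IFNy. These lie at or near the floor of 3 counts per library, so no difference between groups is read from them. Ifnar1 and Ifnar2 were tested, and neither was called for IFN-γ against PBS or in Model A.

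The 19 IFN-γ targets that served to check the labels were also followed through Model A. All 19 rose with IFN-γ (median log2 fold change 2.83), where 9.79% of all genes were called higher. With LE 5 rose and 1 fell (median 0.03), with SE 2 rose and 2 fell (median -0.14), and with PE 0 were called (median -0.07). Over all genes tested, 9.58% were called higher and 5.93% lower with LE, 5.01% and 2.38% with SE, and 0.448% and 0.181% with PE. Those that moved most with LE were the guanylate-binding protein Gbp2 (1.47, SE 0.0752), the checkpoint ligand Cd274 (1.11, SE 0.0730), Gbp3 (0.77, SE 0.0822) and Socs1. With SE, Gbp2 rose by 1.02 (SE 0.0748) and Cd274 by 0.73 (SE 0.0730), while Ciita, the master factor of MHC class II, fell by 0.65 (SE 0.110) and Irf1 also fell. Irf1 and Socs1 are among the genes that stand in more than 1 of these lists.

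Of 12 other CXC ligands 4 were tested. With LE, the neutrophil chemokine Cxcl2 rose by 2.20 (SE 0.114), the membrane-bound Cxcl16 by 1.49 (SE 0.0965) and Cxcl14 by 0.84 (SE 0.280), and the platelet factor Pf4 fell by 1.23 (SE 0.223). With SE, Cxcl2 rose by 1.29 (SE 0.114), Cxcl16 by 1.38 (SE 0.0965) and Cxcl14 by 1.00 (SE 0.278). With PE 0 of the 4 were called. Over all genes in Model A, 9.58% were called higher and 5.93% lower with LE. The shares were 5.01% and 2.38% with SE, and 0.448% and 0.181% with PE. Cxcl2 was higher in LE+IFNy than in SE+IFNy by 0.91 (SE 0.107, edgeR's adjusted p = 1.83e-05), and whether this differs from the values of the CXCR3 ligands was not tested.

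The receptor moved the other way. Cxcr3 had 3.84 ± 0.367 CPM in PBS and 1.504 ± 1.28 CPM with IFN-γ (SD, n = 3), and it fell by 1.32 (SE 0.424, edgeR's adjusted p = 0.0276), although the IFNy libraries ran from 15 to 73 counts. In Model A it was not called with LE (-0.92, edgeR's adjusted p = 0.112), SE (-0.97, edgeR's adjusted p = 0.129) or PE (-0.06, edgeR's adjusted p = 0.944). In Model B it fell by 2.22 with LE, 2.35 with SE and 1.30 with PE (edgeR's adjusted p = 3.93e-07, 3.22e-07 and 0.000252). Ackr3, the scavenging receptor of CXCL11, and Dpp4, the protease that trims these chemokines, had at most 3 counts and 1 count in any letter-labelled library.

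The genes around the cluster were examined because the 3 ligands lie within 44.1 kb. Of 17 neighbours within 200 kb of the cluster, 5 were tested for IFN-γ against PBS and 0 were called, beside 9.79% of all genes called higher and 8.28% lower. In Models A and B 6 were tested. Sdad1, which starts 38.4 kb from the Cxcl10 start on the Cxcl9 side, rose with LE by 0.67 (SE 0.0724, edgeR's adjusted p = 7.06e-07). With SE its value was 0.53 (SE 0.0726, edgeR's adjusted p = 2.01e-05), under the 1.5-fold limit. Nup54, 86.3 kb away on the Cxcl11 side, had 0.51 with LE (SE 0.0694, edgeR's adjusted p = 9.22e-06), also under that limit. With SE and with PE 0 of the 6 were called. Over all genes in Model A, 9.58% were called higher and 5.93% lower with LE. The shares were 5.01% and 2.38% with SE, and 0.448% and 0.181% with PE. Against PE+IFNy, LE+IFNy was higher for Sdad1 (0.70, SE 0.0726) and Nup54 (0.60, SE 0.0698), where 12.7% of all genes were called higher.

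In Model B neighbours were called too. With LE, 3 of 6 rose, Sdad1 by 0.90 (SE 0.0556), Nup54 by 0.86 (SE 0.0796) and Ppef2, and Scarb2 fell by 0.60 (SE 0.0710). Over all genes, 19.1% were called higher and 15.9% lower. Ppef2 had 0 to 3 counts per library with LE, at the floor, and 9 to 15 with LE+IFNy, so no fold change is given for it. With SE, Sdad1 rose by 0.89 (SE 0.0560) and Scarb2 fell by 0.63 (SE 0.0713), where 15.1% of all genes were called higher and 11.3% lower. With PE Ppef2 rose by 2.04 (SE 0.610), from 0 to 5 counts per library with PE to 13 to 16 with PE+IFNy. There 12.1% of all genes were called higher and 8.82% lower.

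**Figure D4:**
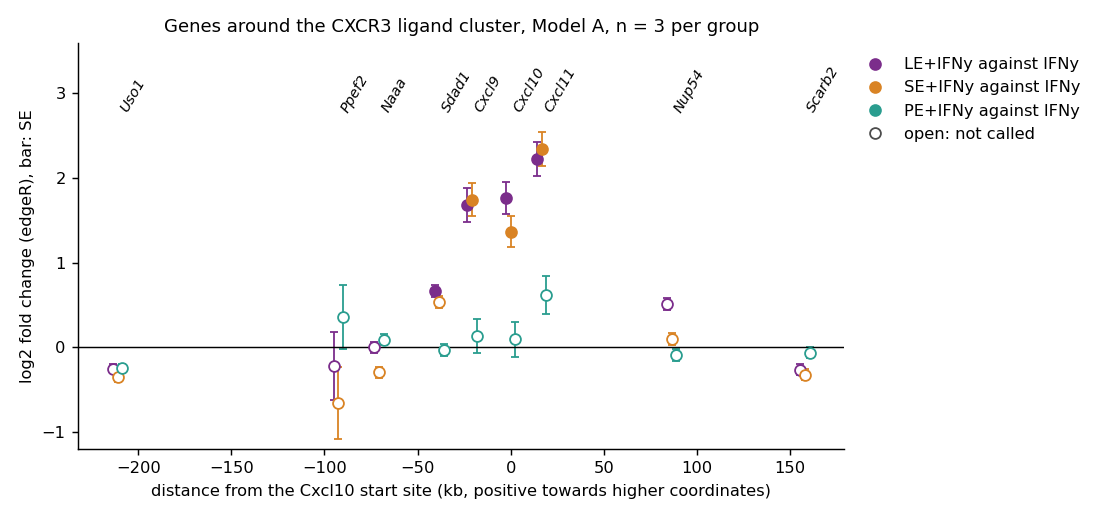
Model A log2 fold changes (y axis, bars are SE) of the tested genes by distance of their start from that of Cxcl10 in kb, for LE, SE and PE; filled points were called. With LE and SE the 3 ligands lie at 1.37 to 2.34, above every neighbour.

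Art3, on the opposite strand, spans Cxcl10 and Cxcl11, and the processed pseudogene Gm2673 overlaps Cxcl11. The sources differ on whether the library kit kept strand and the counting setting is not given, so reads of overlapping genes may not be told apart. Art3 had at most 11 counts and Gm2673 at most 2 in any letter-labelled library, beside 41 to 430 for Cxcl10 and Cxcl11 with IFN-γ.

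The HLA-labelled libraries are described by their labels only. Among the deposited columns, all 24 of this series stand directly after letter-labelled columns of another group than their own label names. The IFN-γ target level matched the label in 12 of the 24 and the IFN-γ status of the columns before them in 24 of 24. Column order was not used to assign any library, so each value below is that of a library so labelled, and its true group may be another. Cxcl9 had 51.1 to 116 CPM in the libraries labelled LE, 35.0 to 44.6 CPM in those labelled PE, 20.5 to 25.1 CPM in LE+IFNy and 12.1 to 26.0 CPM in PE+IFNy. It had at most 1 count in the libraries labelled PBS, IFNy and SE+IFNy and at most 2 in those labelled SE. The IFN-γ targets were likewise high in the libraries labelled LE (6.98 to 7.09) and PE (6.96 to 7.07) and low in those labelled IFNy (3.14 to 3.19) and SE+IFNy (3.11 to 3.24). Cxcl9 was thus high in every HLA-labelled library in which the 19 targets were high and in no other.

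Cxcl10 and Cxcl11 followed the same libraries. Cxcl10 had 14.6 to 22.0 CPM in the libraries labelled LE and 15.9 to 19.02 CPM in those labelled PE, and 0.217 to 0.574 CPM in those labelled IFNy. In LE+IFNy it had 3.86 to 4.29 CPM and in PE+IFNy 2.56 to 4.05 CPM. Cxcl11 had 4.83 to 8.09 CPM labelled LE and 1.91 to 2.72 CPM labelled PE, against 1.27 to 2.62 CPM in LE+IFNy and 0.997 to 1.97 CPM in PE+IFNy. In the libraries labelled SE+IFNy it had 0 counts in all 3. The libraries labelled LE and PE stand in the table after the SE+IFNy and LE+IFNy columns, and those labelled IFNy and SE+IFNy after the PE and PBS columns. The directions in this series are those between libraries so labelled.

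**Figure D5:**
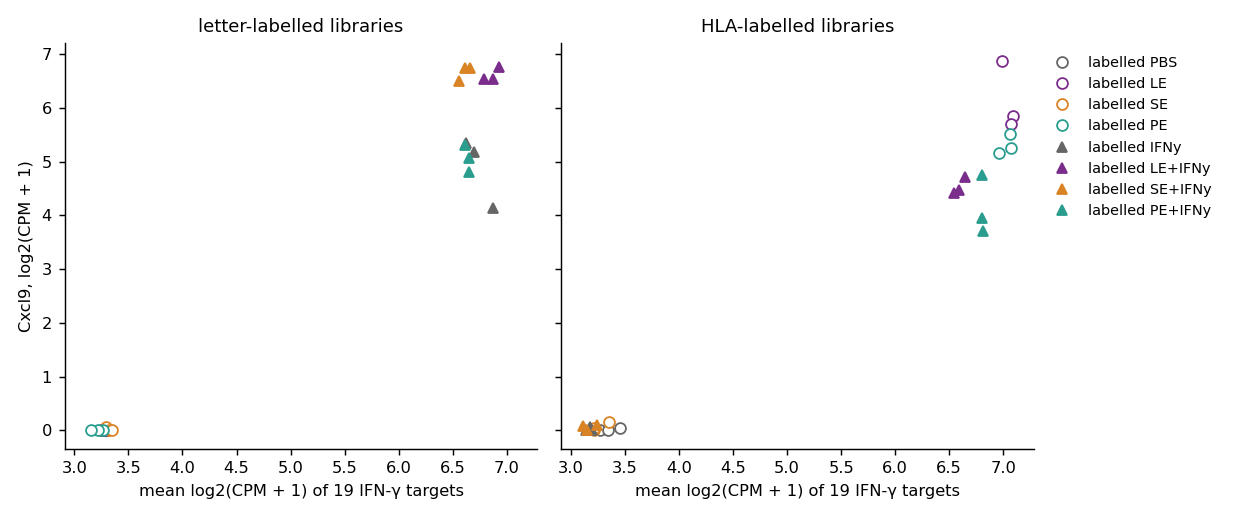
Cxcl9 as log2(CPM + 1) against the mean log2(CPM + 1) of 19 IFN-γ targets, 1 point per library, in 24 letter-labelled and 24 HLA-labelled libraries; triangles are labelled with IFN-γ and open circles without. On the HLA side 6 open circles (labelled LE and PE) lie with high targets and 6 triangles (labelled IFNy and SE+IFNy) with low targets.

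The genes most alike to each ligand were taken by Pearson's r of log2 CPM over 13137 genes, as a description across libraries that share the IFN-γ contrast. Over the 24 letter-labelled libraries Clec9a was most like Cxcl9 (r = 0.999), then Klrk1 and Gbp2, Plk3 was most like Cxcl10 (r = 0.981), and Bst1 was most like Cxcl11 (r = 0.989), with Cxcl9 itself in position 5. Over the 12 libraries with IFN-γ the leaders were Ticam1 for Cxcl9 (r = 0.992), Bst1 for Cxcl10 (r = 0.988) and Rhov for Cxcl11 (r = 0.988). Among the members in those 12 libraries Cxcl9 and Cxcl11 were closer to each other (r = 0.960) than either was to Cxcl10 (r = 0.916 and 0.915). Many other genes were closer still. Cxcl11 stood in position 30 for Cxcl9, and Cxcl9 in position 36 for Cxcl11. For Cxcl10, Cxcl9 stood in position 493 and Cxcl11 in position 506.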

How the data were processed

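The values are the read counts that the authors deposited in 1 table, genes by 48 RAW264.7 libraries. Per the labels and the study's methods, RNA (200 ng) was made into TruSeq libraries for single-end reads of 100 bases, and uniquely aligned reads were counted with featureCounts on GRCm38.p5. The submitters' notes name DESeq2 1.16.1 and R 3.4.1. An aligner and a strand setting are not given in the sources used here. They are not normalized, and all columns could be matched to a sample. Among gene names, 26 were date-like and 4 lines held a repeated name. These were kept in totals and fits.

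CPM is the count divided by the library total, times 1000000. RPKM also used the union of GENCODE M21 exons over all transcripts, which for Cxcl10 is the whole gene and which may differ from the annotation counted. The quasi-likelihood test of edgeR 4.0.16 (R 4.3.3), after filterByExpr and with TMM factors, was run on the letter-labelled libraries, n = 3 per group, with Benjamini-Hochberg adjustment over all genes tested. IFNy and PBS, the 4 groups without IFN-γ, the 4 with it (Model A), the 6 with a peptide (Model B) and all 8 (interaction) were fitted apart. Intervals are at 95%. A group with at most 3 counts in each library counts as at the floor, and such bounds cover counting error only. Alternatives were RLE scaling, no filter, DESeq2 1.42.0, the replicate number as a block, each library left out, both label series and the HLA-labelled series alone. Of these steps, only the edgeR fit of LE with IFN-γ against IFN-γ was tested on simulated data. Chi-square over degrees of freedom was at least 3.89 in 276 pairs of letter-labelled libraries, so no library was a re-read of another. That does not show that the libraries of a group came from separate experiments. The study describes fewer independent experiments than biological replicates, and the sources used here do not say which libraries shared an experiment. Each library was taken as 1 replicate, so p-values may not measure the spread between independent experiments. The members and lists were chosen with earlier results of these data known. The 3 members are named in every comparison, and of each list at most 4 called genes with the largest fold change and any receptor. No protein sequence or Cxcl11 promoter was used here. The values of some genes counted in these lists are not reported here.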

Additional observations from a re-analysis of the deposited data

Results flagged for a closer look

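The effect of LE on Cxcl10 differed with and without IFN-γ by 1.66 on the log2 scale (edgeR's adjusted p = 0.00724), and that of SE by 1.39 (edgeR's adjusted p = 0.0416), by the test of the interaction itself. In counts, LE took Cxcl10 from 93, 103 and 96 to 314, 311 and 430 with IFN-γ, and from 8, 10 and 25 to 20, 11 and 11 without it. Leaving out 1 library moved the LE value between 0.96 and 2.00 and the SE value between 0.69 and 1.73. Without the PBS library of replicate 3, which had 25 counts, neither interaction was called. The SE call was also lost without certain other single libraries.

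In the HLA-labelled series, which the comparisons between groups do not use, the ligands were above the PBS libraries in the libraries labelled LE and PE, although these labels name no IFN-γ. Mean Cxcl9 was 74.7 CPM in those labelled LE and 39.0 CPM in those labelled PE, against at most 0.0307 CPM in any library labelled PBS. Mean Cxcl10 was 17.5 and 17.8 CPM, against at most 1.14 CPM, and mean Cxcl11 was 5.96 and 2.30 CPM, against at most 0.0470 CPM. The mean log2(CPM + 1) of the 19 IFN-γ targets was 6.98 to 7.09 in the libraries labelled LE and 6.96 to 7.07 in those labelled PE, and 3.26 to 3.46 in those labelled PBS. In the deposited table the columns labelled LE and PE stand after the letter-labelled columns of SE+IFNy and LE+IFNy, and over the series the target level matched the label in 12 of 24 libraries and the IFN-γ status of the columns before them in 24 of 24. No library was reassigned.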

How the results depend on the processing

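Of 36 member values, all kept direction and side of the threshold under RLE scaling, and all but Cxcl11 with PE in Model A under DESeq2 (0.61) and without a filter on low counts (0.62). Replicate numbers were checked as pairs: over 84 same-numbered pairs the correlation of deviations ran from -0.11 to 0.23 (median 0.0451, 25 over 0.1), against -0.22 to 0.24 over 168 pairs of different number (median -0.0235, 10 over 0.1), and 16 of 24 libraries correlated best with their own number. With the replicate block Cxcl11 with PE was called (0.63), Cxcl10 with SE alone turned sign (0.014), and 34 values kept their side. The block moved the calls over all genes for PE in Model A from 80 to 111 and for LE alone from 3 to 7, and leaving out 1 library took the former to 24, 157 and 129 (IFNy replicates 1, 2 and 3) and 52, 135 and 18 (PE+IFNy replicates 1, 2 and 3).

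Leaving out 1 library at a time gave 234 values, of which 218 kept direction and side. The ranges of the results that changed were -0.17 to 0.37 for Cxcl9 and 0.37 to 1.00 for Cxcl11 with PE in Model A, -0.25 to 0.79 with LE alone and -0.36 to 0.68 with SE alone for Cxcl10, and 0.96 to 2.00 (LE) and 0.69 to 1.73 (SE) for its interactions. The SE interaction lost its call without PBS replicate 3 (0.69), SE replicate 1 (1.29) or 3 (1.28), IFNy replicate 1 (1.32) or 2 (1.40), or SE+IFNy replicate 1 (1.37) or 3 (1.28).

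Pooling both label series, which puts libraries against their label into the groups, removed every Model A, Model B and peptide pair call. In the order Cxcl9, Cxcl10, Cxcl11 the log2 values were then 1.98, 1.99 and 2.33 for LE and 1.74, 1.24 and 2.25 for SE in Model A. They were 1.22, 1.21 and 1.37 for LE against PE, 0.98, 0.46 and 1.29 for SE against PE, and 0.68, -0.10 and 1.21 (LE), 8.52, 3.25 and 6.47 (SE) and 0.37, -1.29 and 1.14 (PE) in Model B. The Cxcl9 and Cxcl11 values in Model B are log2 ratios of mean CPM and were not fitted. Of these, 8.52 is a lower bound against the floor. Cxcl9 and Cxcl11 did not pass the filter of the pooled fit of IFN-γ against PBS. LE against SE became 0.24 for Cxcl9 and 0.079 for Cxcl11. Cxcl10 had 1.71 for IFN-γ against PBS, 3.75 for PE alone, and interactions of -1.80 (LE), 1.497 (SE) and -2.96 (PE).

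The HLA-labelled series alone, by label, gave in that gene order 6.94, 2.98 and 3.31 for PE in Model A (called), 6.99, 4.10 and 3.33 for LE against SE (called), 0.35, 0.28 and 0.39 for LE against PE (not called), -6.64, -3.82 and -2.93 for SE against PE (called), and in Model B -1.74, -2.22 and -1.76 for LE and -1.15, -2.48 and -0.78 for PE. Cxcl10 had -0.83 for IFN-γ against PBS, -0.84 for SE in Model A, -1.21 for SE in Model B, 4.62 for LE alone, 4.59 for PE alone, and interactions of -1.35 (LE), -0.33 (SE) and -1.60 (PE). LE in Model A stayed called (7.29, 3.26 and 3.69). Not all of these values are fitted. For Cxcl9 in Model A, and for Cxcl9 and Cxcl11 in LE against SE and SE against PE, they are bounds against the floor. The Cxcl9 and Cxcl11 values in Model B are log2 ratios of mean CPM. For IFN-γ against PBS (Cxcl9 and Cxcl11) and for SE in Models A and B (the same genes), counts were at or near the floor or did not pass the filter, and no value is given. These values are by label. The target level went against the label in 12 of these libraries and matched the letter-labelled columns that stand before them in the table in 24 of 24, so the true groups may be others. The cause of these changes was not tested.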
